A study of Mus musculus with 24 samples.

Results

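A set of 23 probes of a mouse whole-transcriptome panel was higher in both kinds of retinal region than in kidney and heart microvessels. These members came from 20186 probes with a count in at least 1 of 24 regions, and they were selected on measured values. For each probe, the count was divided by the total of its region and multiplied by 1000000 (CPM), the median was taken over the 6 regions of each cell type, and 1 was added. A member had 10 or more counts in at least 4 of the 6 neuronal regions, lay within 3-fold between retMECs and retinal neurons, and had its smaller retinal value at least 3 times the larger of its renal and cardiac values. The list was limited to 100 places, of which 23 were filled.

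The regions came from male C57BL/6J mice, 3 non-diabetic and 3 diabetic. The diabetic mice received streptozotocin, a toxin of the insulin-producing beta cells, at 50 mg/kg in citrate buffer on each of 5 days from 8 weeks of age, the non-diabetic mice received the buffer alone, and tissue was taken 2 months later. Microvascular endothelial cell (MEC) regions were picked by staining for CD31, an endothelial surface protein, in the retina (retMEC), kidney (renMEC) and heart (carMEC). Retinal neuronal regions were picked by staining for NeuN, a nuclear protein of many mature neurons, and subtypes of these cells were not separated. Each of the 8 groups holds 3 regions, but the labels do not tie a region to a mouse, and regions of different tissues may share one. Diabetic carMEC regions 2 and 3 are labelled by organ only, and their place among the carMECs rests on the study describing no other heart regions.

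The inner retina is a neurovascular tissue. Its capillaries run among neurons and glia, and its endothelium forms a tight blood-retinal barrier, whereas the capillaries of the glomerulus are fenestrated and those of the myocardium are continuous. A region of this tissue holds whatever cells lie in the selected area, and the selection does not tell from which of them a transcript came. The probe IDs were not paired with gene symbols by any source used here, so the members are given by their rank in the ratio of retina to kidney and heart. The cell type labels could not be checked against marker genes for the same reason.

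Total counts were 28722 to 342522 in the retMECs, 78053 to 788146 in the neuronal regions, 217736 to 1451915 in the renMECs and 115269 to 521366 in the carMECs. A pair of retMEC regions stood apart. In non-diabetic retMEC region 1, the deepest, the 202 most abundant probes held 3.5% of all counts, against 13.0% to 18.7% in the other retMEC regions and 17.1% to 31.6% elsewhere. Diabetic retMEC region 2 was the shallowest, so that 1 count equalled 34.8 CPM. All retMEC regions were on one plate, where 39.9% to 61.0% of reads aligned, and all other regions were on another, with 79.4% to 96.7%. Plate and cell type therefore cannot be told apart in any contrast of retMECs with another cell type, the neuronal regions included, while neuronal, renal and cardiac regions shared a plate.

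Few probes were high in both retinal cell types. Of 3365 probes past the neuronal count minimum, 287 had a neuronal value at least 3 times the renal and the cardiac one, and 53 of these had a retMEC value that high as well. Of the 53, 29 were over 3-fold higher in the neuronal regions than in the retMECs, 1 was over 3-fold higher in the retMECs, and the 23 members lay in between. A further 18 probes reached 3-fold in the retMECs but not in the neuronal regions. The lowest ratio among the members was 3.02, in the member ranked 23, and the highest among the probes just outside was 2.99. The largest distance between the retinal cell types was 2.96 inside the list, in the member ranked 16, and the smallest one outside it was 3.06.

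**Figure D1:**
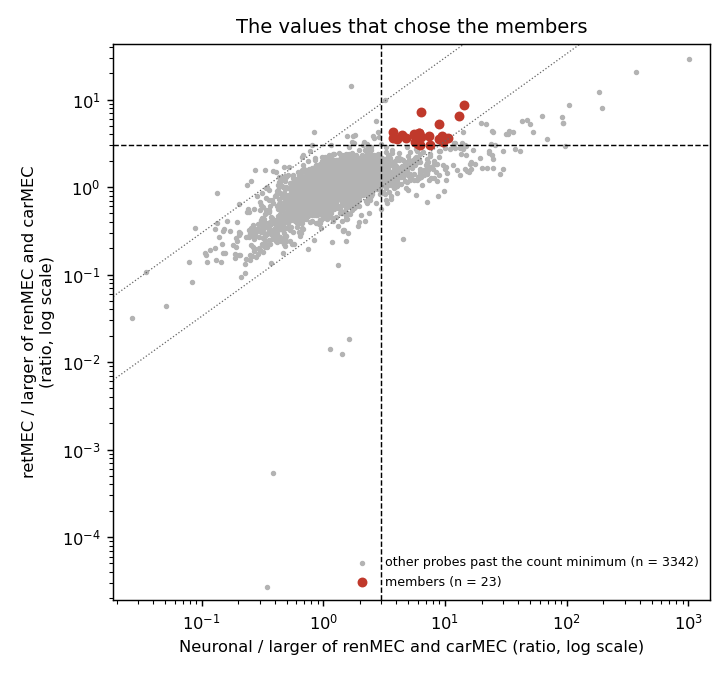
Each point is one of the 3365 probes past the neuronal count minimum, placed by its neuronal value (x axis) and its retMEC value (y axis), both as ratios to the larger of the renMEC and carMEC values on log scales. Dashed lines mark a ratio of 3 and dotted lines a 3-fold distance between the retinal cell types, and the 23 members, in red, lie in the wedge that these lines enclose.

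The ratio of retina to kidney and heart ran from 3.02 to 8.57 over the members, with a median of 3.73. It was at least 5 in 4 members and under 4 in 16, so most members lay close to the threshold. Over the members, the median of the cell type values (median CPM plus 1) was 250.6 in the neuronal regions (range 109.9 to 920.7) and 162.3 in the retMECs (48.8 to 1057.0), against 25.4 in the renMECs (13.1 to 246.9) and 40.6 in the carMECs (16.1 to 243.1). The neuronal value was above the retMEC value in 21 of 23 members, by a median ratio of 1.69 (range 0.87 to 2.96). These values chose the members and are a description only.

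The member ranked 1, RTS0070854, was the farthest from kidney and heart, at a ratio of 8.57. In CPM, it measured 721.9, 678.8 and 654.3 in the non-diabetic neuronal regions and 451.5, 563.7 and 516.9 in the diabetic ones. In the retMECs it measured 125.5, 618.7 and 605.3 without diabetes and 418.8, 69.6 and 311.4 with it. The renMECs lay between 13.8 and 26.6, and the carMECs between 19.6 and 52.1. All 12 retinal regions were above all 12 renal and cardiac regions, and the lowest retinal values were those of the 2 retMEC regions that stood apart. The 69.6 CPM of diabetic retMEC region 2 rested on 2 counts, with an exact 95% Poisson interval of 8.4 to 251.5 CPM, which covers counting error only.

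The member ranked 2, RTS0077094, had a ratio of 6.42. In CPM, it measured 413.3, 446.6 and 449.8 in the non-diabetic neuronal regions and 329.4, 281.9 and 303.0 in the diabetic ones. In the retMECs it measured 70.1, 140.1 and 225.2 without diabetes and 257.8, 0 and 333.6 with it. The renMECs lay between 11.4 and 19.6 CPM and the carMECs between 0 and 35.8 CPM. The neuronal regions were thus high throughout, while the retMECs reached down to the renal and cardiac range in 1 region. That region, diabetic retMEC region 2, held 0 counts of this probe, which allows up to 104.4 CPM by a limit of 3 counts and up to 128.4 CPM by the exact two-sided 95% Poisson interval.

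**Figure D2:**
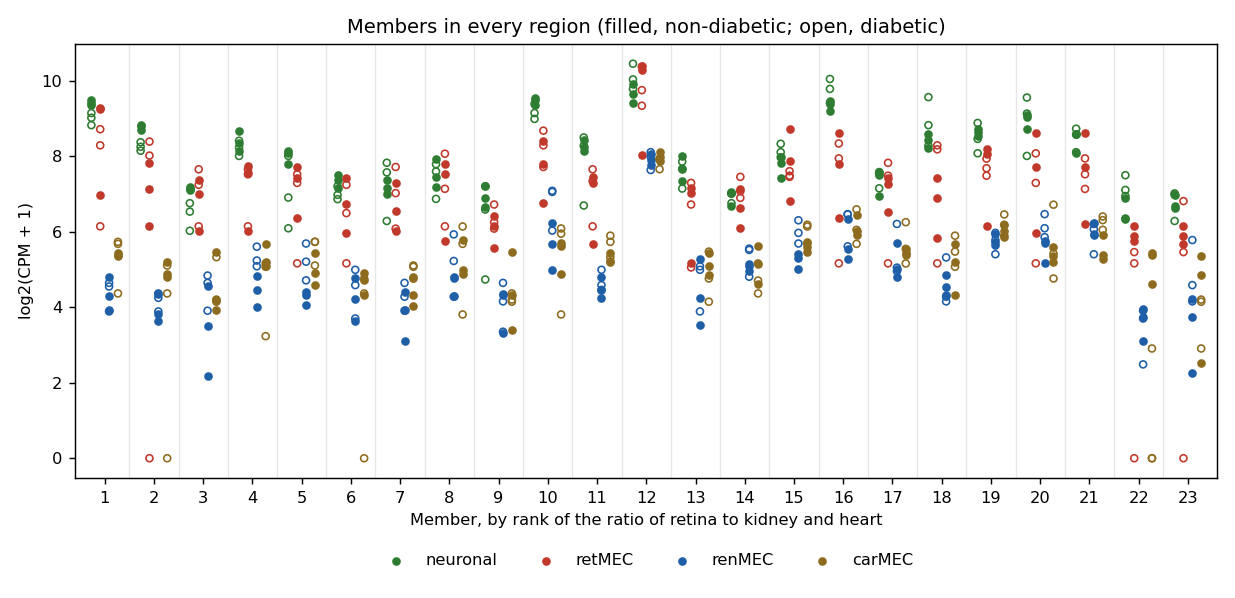
Each column is one member in order of rank, and each point is one region, as log2(CPM + 1), with filled points for non-diabetic and open points for diabetic regions. Neuronal points (green) lie above the renMEC (blue) and carMEC (brown) points in nearly every column, whereas the 6 retMEC points (red) spread widely and reach down to them in 15 of 23 columns.

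The neuronal side of the pattern held region by region. All 6 neuronal regions lay above all 12 renal and cardiac regions in 22 of 23 members, against 17.9% of the 3365 probes. The exception was the member ranked 9, with 25.6 CPM (2 counts) in diabetic neuronal region 2 and 95.1 to 146.4 CPM in the other neuronal regions. The retMEC side was less even. All 6 retMEC regions lay above all 12 renal and cardiac regions in 8 members, those ranked 1, 3, 4, 6, 7, 9, 14 and 15, against 1.55% of the 3365 probes. At least 5 retMEC regions did so in 17 members. Both conditions were met together, with all 12 retinal regions above, in 7 members, against 1.19% of the 3365 probes. The selection used these contrasts, so nothing is read from these counts.

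The lowest retMEC values mostly came from the 2 regions that stood apart. Non-diabetic retMEC region 1 was the lowest of the 6 in 12 members and diabetic retMEC region 2 in 9. Without region 1, 14 members had every remaining retMEC region above the renal and cardiac ones, and without both regions, 20 did. With both left out of the selection itself, all 23 members met the criteria again, within a longer list of 34. The 2 regions were chosen after seeing the data and held most of the lowest retMEC values. Nothing is therefore read from these counts. In diabetic retMEC region 2 the median count of a member was 2, and 1 of 23 members had 10 or more counts there.

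The members varied most among the retMEC regions and least among the neuronal ones. The median coefficient of variation of a member's CPM was 49.1% in the retMECs, 35.4% in the renMECs, 33.9% in the carMECs and 21.4% in the neuronal regions. Counting error at a member's mean count over the 6 regions would give medians of 26.9%, 28.1%, 31.9% and 11.9%. Those values ignore the unequal totals of the regions and are too low for CPM. No excess over counting error is therefore read from them. Over the 3365 probes past the count minimum, the median was 49.1% in the retMECs and 26.8% in the neuronal regions. In the renMECs and the carMECs, where members had few counts, those probes gave 24.2% and 29.6%. In all 6 regions, 10 or more counts were reached by 17 members in the neuronal regions, 4 in the renMECs, 1 in the carMECs and 1 in the retMECs.

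Together the members held a small share of all counts. In the neuronal regions the share was 0.784%, 0.75% and 0.696% without diabetes and 0.756%, 0.746% and 0.746% with it. In the retMECs it was 0.18%, 0.536% and 0.626% without diabetes and 0.506%, 0.327% and 0.472% with it. The renMECs lay between 0.082% and 0.121%, and the carMECs between 0.098% and 0.126%. Every neuronal region was above every retMEC region, and every retMEC region was above every renal and cardiac region. The nearest of these were non-diabetic retMEC region 1, with an exact 95% binomial interval of 0.166% to 0.195%, and diabetic carMEC region 3, with 0.106% to 0.148%. The selection set the retina above kidney and heart, so that part of the order is a description only.

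By condition, the share was 0.743% ± 0.044 (SD, n = 3) in non-diabetic and 0.749% ± 0.006 (SD, n = 3) in diabetic neuronal regions. It was 0.447% ± 0.236 (SD, n = 3) and 0.435% ± 0.095 (SD, n = 3) in the retMECs, and 0.108% ± 0.009 (SD, n = 3) and 0.109% ± 0.015 (SD, n = 3) in the carMECs. In these 3 cell types the conditions overlapped. In the renMECs, with 0.087% ± 0.007 (SD, n = 3) and 0.11% ± 0.011 (SD, n = 3), the 3 diabetic regions (0.1% to 0.121%) lay above the 3 non-diabetic ones (0.082% to 0.095%). The median probe was also higher in the diabetic renMECs, at 27.6 CPM or more against 22.8 CPM or less, and the 202 most abundant probes held less, 22.3% to 23.9% against 28.4% to 31.6%. Relative to the median probe, the median member overlapped between the conditions, at 1.0 to 1.1 times with diabetes and 1.0 to 1.17 times without it. The part of this shift in the members' share was not tested. A share in bulk regions does not tell fewer cells of a type from less RNA per cell.

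**Figure D3:**
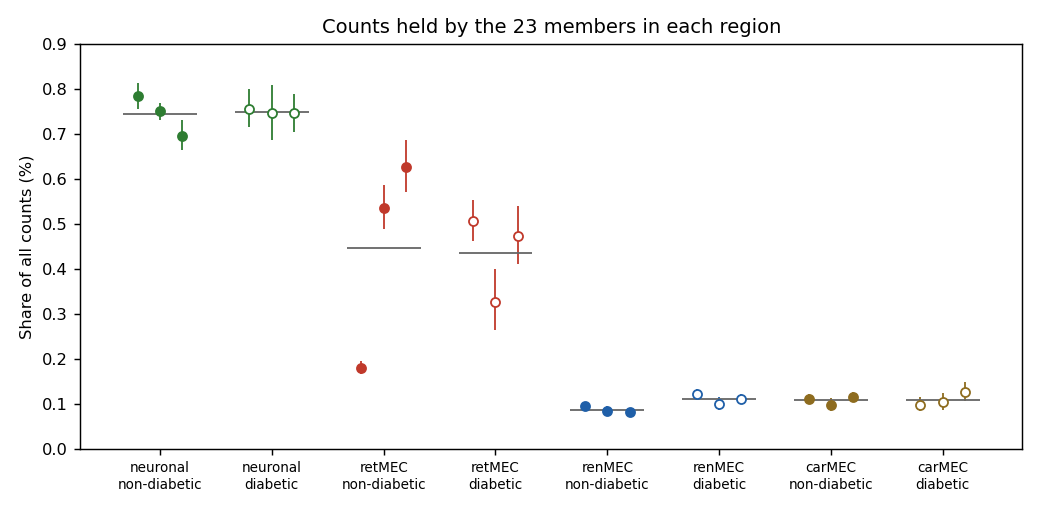
Each point is the share of a region's counts held by the 23 members, in percent, with its exact 95% binomial interval for counting error, and grey lines are group means (n = 3, filled points non-diabetic, open points diabetic). The neuronal regions sit at 0.696% to 0.784%, the retMECs spread from 0.18% to 0.626%, and the renMECs and carMECs sit at or below 0.126%.

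Set against the median probe of the same region, most members were unremarkable outside the retina. The median member was 1.0 to 1.17 times the median probe in the renMECs and 1.0 to 1.25 times in the carMECs. It was 7.71 to 11.25 times the median probe in the neuronal regions. In the retMECs it was 1.38 times in non-diabetic region 1, 2.0 times in diabetic region 2 and 5.0 to 8.0 times in the other regions. Taken member by member over the 6 regions, 21 members lay over 2 times the median probe in the retMECs. The members ranked 22 and 23 lay at only 1.23 and 1.5 times there. In the renMECs, 16 members lay between 0.5 and 2 times the median probe, as did 21 members in the carMECs. Most renal and cardiac values thus lay near the level of a typical probe, which in these regions was 21.1 to 38.3 CPM.

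The member ranked 12 was an exception to this. It lay 10.01 times over the median probe in the renMECs and 7.2 times in the carMECs, next to 33.5 times in the retMECs and 35.9 times in the neuronal regions. Its CPM was 262.8, 1330.9 and 1252.9 in the non-diabetic retMECs and 859.2, 1323.0 and 645.0 in the diabetic ones. In the neuronal regions it was 960.8, 672.5 and 801.5 without diabetes and 878.5, 1396.5 and 1045.8 with it. The renMECs ran from 197.7 to 274.5 CPM and the carMECs from 200.6 to 276.2 CPM. In non-diabetic retMEC region 1 this member therefore lay within the renal and cardiac range, while the other 11 retinal regions were above it. It was 1 of 2 members with a retMEC value above the neuronal one.

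The members differed from probes high in the neuronal regions alone mainly in the retMEC value, by construction. The 168 probes past the count minimum whose neuronal value was at least 3 times that of each other cell type had a median of 295.3 in the neuronal regions, near the 250.6 of the members. Their median was 62.2 in the retMECs against 162.3, with a median neuronal to retMEC ratio of 4.68. Those 168 probes held a median of 14.15% of the counts of a neuronal region and 1.479% of those of a retMEC region.

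The choice of scaling decided part of the membership. The 75th percentile of a region's counts, to which the study scaled its values, equalled a median of 58.4 CPM in the retMECs, 43.7 in the neuronal regions, 43.3 in the renMECs and 49.3 in the carMECs, so that this scaling lowered the retMECs relative to the others. In counts, that percentile was 2 to 20 in the retMECs and 4 to 35 in the neuronal regions. It was 10 to 53 in the renMECs and 6 to 23 in the carMECs. As a small whole number, it is a coarse scale in the shallow regions. The diabetes tests below used factors at the same percentile. Under 75th percentile scaling 10 of 23 members still met the criteria, and the median ratio was 2.98. Trimmed mean of M-values (TMM) scaling kept 10 as well, at a median ratio of 2.97. The highest ratio stayed with the member ranked 1, at 6.74 and 7.90. Over both scalings, each condition alone, means instead of medians and 10 CPM added instead of 1, 6 members met the criteria in all 6 settings, those ranked 1, 3, 4, 6, 7 and 11. The members ranked 22 and 23 met them in none.

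The members were chosen over both conditions, which leaves the diabetes contrast for a test. It was fitted over all probes of a cell type that passed a filter on low counts with edgeR's quasi-likelihood test, and p-values were adjusted over all of them by the Benjamini-Hochberg method. The p-values rest on the spread between regions of a group. The test draws each probe's spread toward that of the other probes tested, so a probe's own spread is not used alone.

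In the neuronal regions, 1 of 23 members was lower in diabetes and none was higher, at an adjusted p under 0.05. Over all 4135 probes tested, 51 were called, or 1.23%. The median log2 fold change of the members was -0.09, with 9 above 0 and 14 below, next to -0.01 over all probes tested. Standard errors were 0.22 to 0.30, and the fold changes of the members ran from -1.02 to 0.60 on the log2 scale.

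The called member was the one ranked 5, RTS0067951. In the neuronal regions it measured 281.8, 270.3 and 220.8 CPM without diabetes (105, 213 and 54 counts) and 67.1, 256.2 and 118.8 CPM with it (11, 20 and 20 counts). Diabetic region 2, the shallowest neuronal region, lay inside the non-diabetic range, and the other 2 diabetic regions lay below it. The log2 fold change was -1.02 (SE 0.27), with an adjusted p of 0.02 by edgeR's quasi-likelihood test. The sign was the same under all 13 alternatives, from -1.41 to -0.20, but the adjusted p ranged from 0.00068 to 0.96 and stayed under 0.05 in only 4 of them. It was 0.58 without diabetic neuronal region 1, 0.35 without diabetic region 3, 0.24 without non-diabetic region 2 and 0.13 without non-diabetic region 1. In the retMECs the same member measured 81.7, 210.1 and 168.9 CPM without diabetes and 182.6, 34.8 and 155.7 CPM with it, with a log2 fold change of -0.17 (SE 0.65).

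The 3 leading members had neuronal values that did not overlap between the conditions, although none of them was called. In RTS0070854 the non-diabetic regions averaged 685.0 ± 34.3 CPM (SD, n = 3) and the diabetic ones 510.7 ± 56.4 (SD, n = 3), with a log2 fold change of -0.45 (SE 0.22, edgeR adjusted p = 0.48). In RTS0077094 they averaged 436.6 ± 20.2 (SD, n = 3) and 304.8 ± 23.8 (SD, n = 3), with -0.51 (SE 0.22, edgeR adjusted p = 0.37). The member ranked 3 averaged 139.9 ± 3.1 (SD, n = 3) and 87.5 ± 21.7 (SD, n = 3), with -0.59 (SE 0.30, edgeR adjusted p = 0.53). Over the list, 3 members had all diabetic neuronal regions below all non-diabetic ones, against 4.93% of the 3365 probes, and 1 had them above, against 7.22%. Before adjustment, p was under 0.05 for 4 members that were lower, the called one included, and for 3 that were higher, next to 238 and 153 of the 4135 probes.

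**Figure D4:**
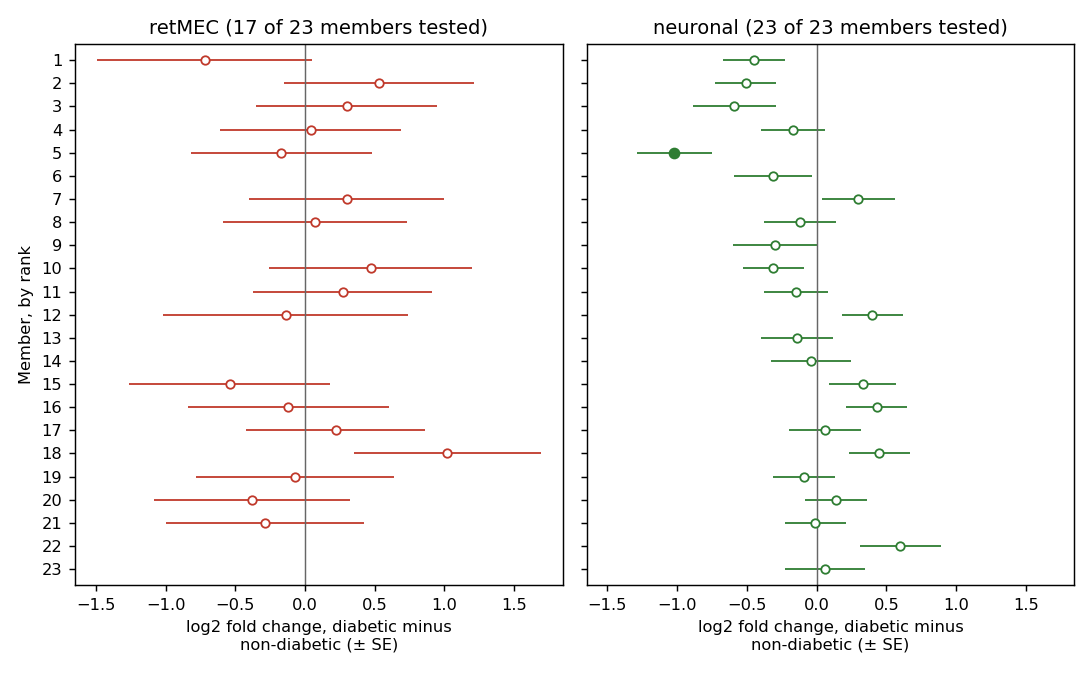
Points are log2 fold changes (diabetic minus non-diabetic, edgeR's quasi-likelihood fit) with standard errors for the members by rank, on the left for the retMECs (17 of 23 members tested) and on the right for the neuronal regions (23 tested). The single filled point, the member ranked 5 in the neuronal regions at -1.02, is the one called at an adjusted p under 0.05, and the retMEC error bars are about 3 times as long as the neuronal ones.

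In the retMECs, 17 of 23 members passed the count filter and none was called in either direction, and none had an unadjusted p under 0.05. Over all 699 probes tested, 0% were called, while 21 of them were higher and 1 was lower with p under 0.05 before adjustment. DESeq2 called no member either. Standard errors of the members were 0.64 to 0.88 on the log2 scale, against 0.22 to 0.30 in the neuronal regions. All 3 diabetic retMEC regions lay above the non-diabetic ones in 0 members, against 6.39% of the 3365 probes, and below them in 1, against 4.28%. The median log2 fold change was 0.04, with 9 above 0 and 8 below, next to 0.37 over all probes tested. Over all probes the shift was 0.36 with TMM and 0.48 with total counts, but -0.02 with DESeq2, which changes both the size factors and the model, and -0.03 without non-diabetic region 1. In the last 2 settings the median of the members was -0.32 and -0.40, so it had no sign common to all settings.

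The member with the smallest p toward higher values in the retMECs was the one ranked 18, RTS0074011, which was not called. It measured 55.5, 116.7 and 168.9 CPM without diabetes and 311.4, 34.8 and 289.2 CPM with it, with a log2 fold change of 1.02 (SE 0.67, edgeR adjusted p = 0.98). Its neuronal values were 343.5, 381.9 and 294.4 CPM without diabetes and 451.5, 755.9 and 309.0 CPM with it, at 0.45 (SE 0.22, edgeR adjusted p = 0.50). The conditions overlapped in both cell types. Toward lower values the smallest p was that of RTS0070854, at -0.72 (SE 0.77, edgeR adjusted p = 0.98).

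With both retinal cell types in 1 fit and cell type as a term, no member was called among 23 tested, and 0% of 2668 probes were. Before adjustment, edgeR's p was under 0.05 for no member, and over all probes for 73 that were higher and 22 that were lower. DESeq2 called no member. The smallest p values were those of RTS0074011, at 0.73 (SE 0.38, edgeR adjusted p = 1), and RTS0067951, at -0.61 (SE 0.35, edgeR adjusted p = 1). These 12 regions came from at most 3 mice in each condition, so that some share a mouse, which the fit ignores. Where regions of a mouse are alike, these p-values are too small.

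A test of whether the diabetes effect differed between retMECs and neuronal regions called no member of 23 and 0% of 2668 probes. This test too took no account of shared mice. Before adjustment, edgeR's p was under 0.05 for 1 member, and over all probes for 216 of positive and 45 of negative sign. DESeq2 called no member. The one member was that ranked 22, RTS0064611. It measured 52.6, 58.4 and 70.4 CPM in the non-diabetic retMECs and 43.0, 34.8 and 0 CPM in the diabetic ones, on 18, 5 and 5 and on 4, 1 and 0 counts. In the neuronal regions it measured 118.1, 79.9 and 81.8 CPM without diabetes and 122.0, 179.4 and 136.7 CPM with it. The conditions did not overlap in either cell type and lay in opposite order, with a difference of effects (retMEC minus neuronal) of -1.58 (SE 0.79, edgeR adjusted p = 0.49). Toward the other sign, the smallest p was that of the member ranked 3, RTS0069597, at 1.03 (SE 0.64, edgeR adjusted p = 0.67).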

How the data were processed

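RNA in tissue sections was measured with the GeoMx Mouse Whole Transcriptome Atlas, whose probes carry barcodes that are cleaved from a selected region and sequenced. The authors deposited raw counts per probe for each of 24 regions, made with the GeoMx NGS Pipeline 2.3.4, per the file headers, which collapses reads to unique molecules. Their processing notes name the build mm10. The study's own probe filter and 75th percentile scaling are not in these counts. A probe that was not listed was taken as 0.

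The members and gene lists were chosen with earlier results of these data known. Marker lists could not be tested without gene symbols, and members are named by ID only if ranked 1 or 2, called, or of the smallest p in a test in either direction. Diabetes contrasts used edgeR 4.0.16 in R 4.3.3 (upper-quartile factors at the 75th percentile, filterByExpr with a minimum count of 10, glmQLFTest), with DESeq2 1.42.0 as an alternative. Standard errors were the fold change over the root of its F value. The test was also run on simulated counts, and the outcome of that run is not reported here. Total counts were 28722 to 1451915 per region, and intervals cover counting error only. Regions of a group differed by more than sampling noise (chi-square per degree of freedom 1.06 to 3.03 over 24 pairs).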

Additional observations from a re-analysis of the deposited data

Results flagged for a closer look

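The member ranked 22, RTS0064611, had diabetes effects of opposite sign in retMECs and neuronal regions, with every diabetic retMEC region below and every diabetic neuronal region above the non-diabetic regions of its cell type. The test of the difference itself gave -1.58 (retMEC minus neuronal, log2 scale, SE 0.79) with an adjusted p of 0.49 by edgeR's quasi-likelihood test, so the difference was not called. The diabetic retMEC regions held 4, 1 and 0 counts of this probe. Groups of 3 regions are too small for the check for single distant samples.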

How the results depend on the processing

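The number of members that met the selection fell from 23 to 10 under 75th percentile scaling, 10 under TMM-scaled CPM, 12 with the diabetic regions only and 15 with 10 or more counts also required in at least 4 retMEC regions. Some settings also admitted other probes. With the diabetic regions only, 23 probes met it, 11 of them new. With the non-diabetic regions only, 32 did, 15 of them new. Thinning to the lowest total count kept 17 members, but 576 probes then passed, 559 of them new. The neuronal minimum of 10 counts cannot have been applied to the thinned counts. The members ranked 22 and 23 were kept, although their neuronal values of 121.1 and 114.4 are too low for 10 counts at that total. The 576 probes thus passed the ratio criteria only, and their number cannot be compared with those of the other settings. Leaving out 1 region at a time kept 16 to 23, the lowest without non-diabetic retMEC region 3. With both retMEC regions that stood apart left out, an alternative chosen after seeing the data, 23 met it. No member was called in the retMECs, the pooled retina or the difference of effects under any alternative run.

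In the neuronal regions the count of called members went from 1 to 0 under TMM, DESeq2, no count filter and thinning to the lowest total count, and was 0 to 1 with 1 region left out. It was also 0 with the replicate number as a block, where the adjusted p of RTS0067951 was 0.12. Whether the numbers pair the regions is not known. No pair of groups out of 6 had all correlations between same-numbered regions over 0.1, but groups of different condition cannot share a mouse. The block changed no other call of a member. After thinning, the median log2 fold change of the members was 0.22 in the neuronal regions (18 members tested) and -0.75 in the retMECs (2 tested).

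Calls over all neuronal probes fell from 51 to 32 with TMM, 22 with DESeq2, 18 without a count filter, 19 with the block and 0 after thinning, and leaving out non-diabetic region 2 left 7 and diabetic region 3 left 5. In the retMECs they rose from 0 to 19 without a count filter. For the difference of effects they rose from 0 to 18 with total counts, 33 with DESeq2, 51 without non-diabetic retMEC region 3, 11 without non-diabetic retMEC region 1 and 8 without diabetic retMEC region 3. The causes were not tested.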
